A study of Mus musculus with 9 samples.

Results

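The autophagy machinery was followed in the left ventricle of male C57BL/6 mice. There were 4 arrays of ventricles that had been under transaortic constriction (TAC) for 6 weeks and 5 arrays of the sham-operated group. TAC narrows the aorta so that the left ventricle pumps against a raised pressure, and the submitters used it to induce heart failure. The members were chosen by name. They were the genes named Atg with a number, those whose names start with Map1lc3 or Gabarap, and further genes named singly, such as Ulk1, Becn1 and Sqstm1. On the Affymetrix arrays 38 of 18193 genes with a single symbol met this rule, through 89 of 45037 probe sets. Optn, which the rule also names, was not analysed here. Levels are RMA values on a log2 scale, and the brightest probe set stands for a gene. Differences are TAC minus sham with the standard error (SE) of a limma fit, and a gene passed where its Benjamini-Hochberg adjusted p over all 18193 genes was below 0.05.

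Autophagy delivers parts of the cytoplasm to lysosomes for breakdown. A kinase complex around ULK1 starts it, a lipid kinase complex with beclin-1 marks the site, membrane is supplied to a growing sheet, and conjugation enzymes fix proteins of the ATG8 family (LC3 and GABARAP) to that sheet. Cargo receptors such as p62 bind both ATG8 proteins and the material to be degraded, and the closed vesicle then fuses with lysosomes. In the heart the pathway is known for turnover of mitochondria and protein aggregates and for its response to fasting and to load. Much of its control acts on the proteins, which arrays of RNA do not measure.

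Of the 38 autophagy genes, 6 rose and 4 fell in TAC ventricles. Atg13, Becn1, Wipi1, Vmp1, Gabarapl1 and Sqstm1 were higher by 0.33 to 0.45, and Atg4d, Atg10, Ulk1 and Map1lc3a were lower by 0.21 to 0.29. The 10 calls are 26.3% of the members. Over all genes 25.1% were called, 12.8% as higher and 12.3% as lower, so the members' share lies near the background and is no result about the pathway as a whole. Among genes brighter than the median gene, 12 of 35 members (34.3%) were called against 45.3% of all genes. The groups did not overlap in 11 of the 38 genes, or 28.9%, against 25.2% of all genes. These were the 10 called genes and Atg3.

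The median difference of the 38 genes was -0.0063, beside -0.0038 over all genes. No member differed by 1.5-fold in either direction, while 9.22% of all genes did. The largest difference was that of Atg13, at 1.36-fold. Of the 28 genes that did not pass, 27 had a 95% confidence interval that lay within 1.5-fold on either side. The exception was Atg2a, with an interval of -0.66 to -0.07.

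The 6 increases were called whichever array was left out. The 4 decreases fell to 2 without sham replicate 3, 4 or 5 and to 1 without TAC replicate 1 or 2. Without sham replicate 5 Rb1cc1 was called lower in addition. Without TAC replicate 3 the 4 fell to 0, with adjusted p in limma of 0.0617 for Atg4d, 0.0723 for Map1lc3a, 0.0977 for Atg10 and 0.104 for Ulk1. The sizes moved less than the calls. On leaving out 1 array Ulk1 differed by -0.25 to -0.19, Atg4d by -0.33 to -0.25 and Atg10 by -0.27 to -0.20, while the increase of Vmp1 ran from 0.29 to 0.46. Without TAC replicate 3 calls over all genes also fell, from 4565 to 3375. With the median of every array set equal over the genes, 6 members were higher and 7 lower, so that the split of higher to lower calls turned. Over all genes 51.1% of calls were higher, and 40.5% after that centring.

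**Figure D1:**
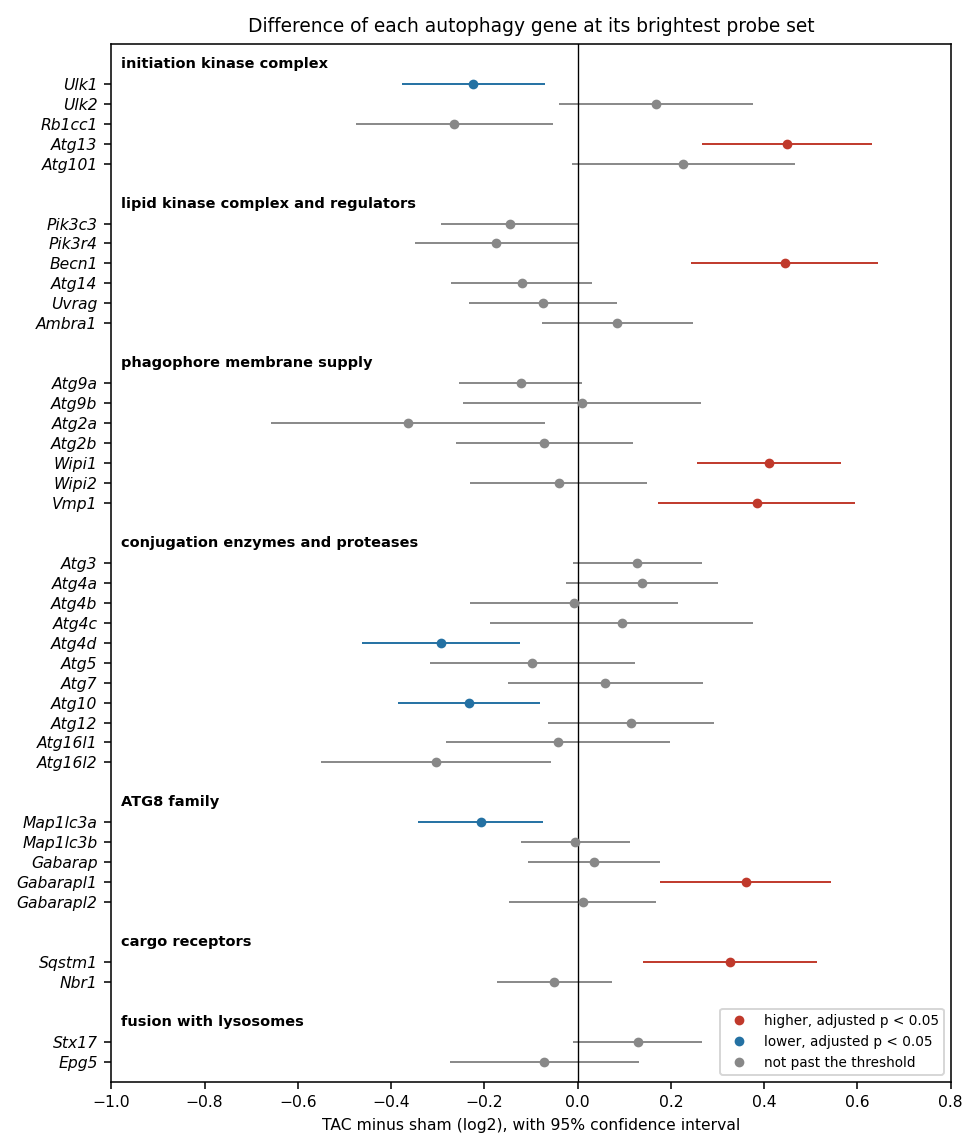
Difference between TAC and sham (log2, horizontal axis) of each of the 38 autophagy genes at its brightest probe set, grouped by role. Points are limma estimates and bars 95% confidence intervals, with 6 genes higher, 4 lower and the other 28 in grey.

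**Figure D2:**
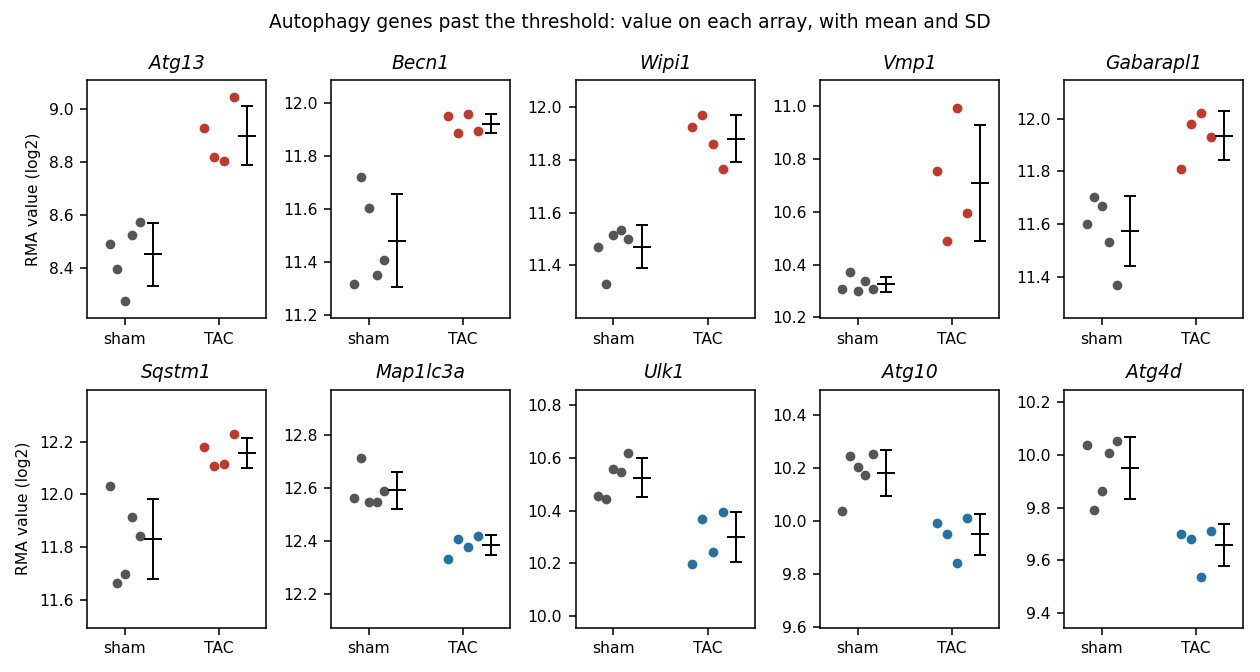
RMA values (log2, vertical axis, each panel spanning the same range) of the 10 genes past the threshold, with 1 point per array and the mean and SD of each group beside the points. In each panel all 4 TAC arrays lie on the same side of all 5 sham arrays.

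Promoter sequences are shown for genes that rose and for members that carry the letters of a known autophagy gene motif, so that both can be read beside the values. RefSeq (GRCm38.p6) promoters, from 250 bases before to 50 after a start, were at hand for 31 of the 38 members, of which 8 were called. The core of the CLEAR element, which TFEB and TFE3 bind, is CACGTG. It was found on either strand in the promoters of Atg3, Atg5, Atg7 and Atg14, which is 12.9% of the members against 8.09% of 27025 genes and 7.15% of all promoters. The longer TCACGTG, which contains that core, was in 3 of them, against 4.29% of genes. None of these 4 genes passed in limma, with adjusted p of 0.172 (Atg3), 0.534 (Atg5), 0.708 (Atg7) and 0.240 (Atg14). The stretches around CACGTG upstream of the start, with the motif in capitals, read as follows, 5′ to 3′ on the strand of the gene.
Atg3 (chr16:45158705-45158770, plus strand): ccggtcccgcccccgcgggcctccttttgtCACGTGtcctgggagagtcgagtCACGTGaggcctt
Atg5 (chr10:44268295-44268338, plus strand): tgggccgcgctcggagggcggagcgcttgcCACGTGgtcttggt
Atg7 (chr6:114670934-114670999, plus strand): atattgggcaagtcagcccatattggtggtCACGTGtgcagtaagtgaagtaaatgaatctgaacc
In Atg14 the match runs across the start and is not printed.

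The antioxidant response element TGACNNNGC, the letters bound by NRF2, was in the promoters of Atg13, Map1lc3b, Ulk2 and Vmp1. That is 12.9% of the members against 14.0% of genes. Atg13 and Vmp1 rose, and their matches, on the opposite strand and in capitals, read as follows. Vmp1 has a match in each of 3 promoters, of which 1 is shown.
Atg13 (chr2:91710796-91710842, minus strand): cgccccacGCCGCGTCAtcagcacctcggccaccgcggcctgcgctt
Vmp1 (chr11:86683966-86684034, minus strand): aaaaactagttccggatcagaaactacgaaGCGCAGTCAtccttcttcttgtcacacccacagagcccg
The FOXO site GTAAACA was in none of the 31 members and in 4.05% of genes.

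The upstream bases of Wipi1 and Gabarapl1 are given in full as examples of promoters of genes that rose. Sqstm1, whose probe sets were both higher too, holds the GC box 3 times in its promoter and is not printed. The GC box GGGCGG, in capitals on either strand, was searched after the sequences had been seen. It was in 20 of 31 members (64.5%) and in 38.2% of genes. Those 20 included Ulk1, Atg4d and Atg10, which fell, but not Atg13 and Vmp1, which rose.
Wipi1 (chr11:109611390-109611639, minus strand): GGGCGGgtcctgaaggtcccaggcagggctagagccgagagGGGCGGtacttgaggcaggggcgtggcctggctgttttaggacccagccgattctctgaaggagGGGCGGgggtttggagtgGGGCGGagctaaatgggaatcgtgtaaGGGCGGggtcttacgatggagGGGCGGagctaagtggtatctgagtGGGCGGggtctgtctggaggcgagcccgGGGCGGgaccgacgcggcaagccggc
Gabarapl1 (chr6:129532942-129533191, plus strand): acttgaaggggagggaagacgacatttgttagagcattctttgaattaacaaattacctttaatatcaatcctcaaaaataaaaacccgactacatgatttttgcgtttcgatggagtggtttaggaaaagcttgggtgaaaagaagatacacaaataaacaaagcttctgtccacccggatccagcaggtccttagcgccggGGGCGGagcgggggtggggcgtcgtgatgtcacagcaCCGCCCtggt
In these 250 bases Wipi1 holds the GC box 8 times and Gabarapl1 2 times. A match is a run of letters, and binding was not measured.

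In the kinase complex that starts autophagy, 1 of 5 genes rose and 1 fell, a called share of 40% beside 25.1% of all genes. The groups by role hold 2 to 11 genes each, so their counts are no result about a step of the pathway. Atg13 encodes the subunit that links the ULK kinases to the scaffold FIP200. Its sham arrays read 8.49, 8.39, 8.27, 8.52 and 8.57 and its TAC arrays 8.93, 8.82, 8.80 and 9.04, all above the sham range. The difference was 0.45 (SE 0.08, adjusted p = 0.00270 in limma). Its other probe sets did not follow. One of them differed by 0.12 and did not pass over all probe sets (adjusted p = 0.569), and the dimmest fell by 0.38 (adjusted p = 0.0310), so that the mean of the 3 differed by 0.06 (adjusted p = 0.635).

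Ulk1, the kinase that AMPK and mTORC1 act on, fell. The sham arrays read 10.45, 10.44, 10.56, 10.55 and 10.62 and the TAC arrays 10.20, 10.37, 10.24 and 10.39, all below the sham range. The difference was -0.22 (SE 0.07, adjusted p = 0.0369), and the call was lost without any of sham replicates 3, 4 and 5 or TAC replicates 1, 2 and 3, with adjusted p up to 0.113. A dimmer probe set of Ulk1 differed by 0.09 in the other direction (adjusted p over all probe sets = 0.544), and the mean of both by -0.07 (adjusted p = 0.512). Over all probe sets the brightest did not pass either (adjusted p = 0.0621).

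Ulk2, the paralog of Ulk1, differed by 0.17 (SE 0.09, adjusted p = 0.234). Its sham arrays ran from 10.14 to 10.57 and enclosed the TAC range of 10.43 to 10.52. A dimmer probe set of Ulk2 did rise by 0.27 (adjusted p over all probe sets = 0.0384), while another differed by -0.21 without passing. Rb1cc1, which encodes FIP200, differed by -0.26 (adjusted p = 0.0686), and all 3 of its probe sets had lower means in TAC. Atg101, which stabilises ATG13, differed by 0.23 (adjusted p = 0.160).

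In the lipid kinase complex that makes phosphatidylinositol 3-phosphate at the site of assembly, 1 of 6 genes rose. That is a called share of 16.7%, beside 25.1% of all genes. Becn1 encodes beclin-1, the subunit through which BCL2 and AMBRA1 act on the kinase. Its sham arrays read 11.31, 11.72, 11.61, 11.35 and 11.41, and its TAC arrays lay close together at 11.95, 11.89, 11.96 and 11.90, above every sham array. The difference was 0.44 (SE 0.09, adjusted p = 0.00512), or 1.36-fold. All 5 Becn1 probe sets were higher in TAC, by 0.21 to 0.52, and 2 of them passed over all probe sets, where 17.7% of 45037 passed.

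The catalytic subunit gene Pik3c3 and its partner Pik3r4, without which beclin-1 complexes have no kinase, leaned the other way without passing. Pik3c3 ran from 9.13 to 9.35 in sham and from 9.06 to 9.16 in TAC, a difference of -0.15 (adjusted p = 0.143 in limma). Pik3r4 differed by -0.17 (adjusted p = 0.141). Atg14, the subunit that directs the complex to autophagy, differed by -0.12, Uvrag by -0.07 and Ambra1 by 0.09, with adjusted p of 0.240 to 0.506.

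Among genes that supply membrane to the growing sheet, 2 of 7 rose and none fell, a called share of 28.6% beside 25.1% of all genes. Wipi1 encodes a protein that binds phosphatidylinositol 3-phosphate on the sheet. The sham arrays read 11.47, 11.33, 11.52, 11.54 and 11.50 and the TAC arrays 11.92, 11.97, 11.86 and 11.77, all above the sham range. The difference was 0.41 (SE 0.07, adjusted p = 0.00172), the smallest adjusted p among the members in limma. All 6 Wipi1 probe sets were higher, by 0.20 to 0.62, and 4 passed over all probe sets.

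The paralog Wipi2, which recruits the ATG16L1 conjugation complex, differed by -0.04 (SE 0.09, 95% confidence interval -0.23 to 0.15), and its 3 probe sets ran from -0.10 to -0.04. Within each array, Wipi1 minus Wipi2 was 3.21 to 3.51 in sham and 3.77 to 3.91 in TAC. That gap widened by 0.45, without overlap of the groups. Centring does not change a gap within an array. The pair was picked after its values were seen, so the gap is a description only.

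Vmp1, a membrane protein of the endoplasmic reticulum that is needed to form autophagosomes, rose. Its sham arrays read 10.31, 10.37, 10.30, 10.34 and 10.31, while the TAC arrays, all higher, read 10.75, 10.49, 10.99 and 10.60 and so varied more among themselves. The difference was 0.38 (SE 0.10, adjusted p = 0.0138), and 0.29 without TAC replicate 3. The dimmer Vmp1 probe set differed by -0.14 (adjusted p over all probe sets = 0.462), and the mean of both by 0.12 (adjusted p = 0.367). In RefSeq the microRNA gene Mir21a lies inside Vmp1, and which transcripts each probe set detects was not examined.

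The other suppliers of membrane did not pass. Atg2a, a lipid transfer protein gene, had the most negative difference of any member, -0.36 (SE 0.13, adjusted p = 0.0704), with sham arrays from 8.47 to 9.11. Sham replicate 2 held the lowest sham value, and without it the difference was -0.47 (adjusted p = 0.00332). Atg2b differed by -0.07, the scramblase gene Atg9a by -0.12 and Atg9b, which averaged 5.86 in sham, by 0.01.

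Among the conjugation enzymes and ATG4 proteases 2 of 11 fell and none rose, a called share of 18.2% beside 25.1% of all genes. Atg4d encodes a protease that trims ATG8 proteins and frees them from lipid. Its sham arrays read 10.04, 9.79, 9.86, 10.01 and 10.05 and its TAC arrays 9.70, 9.68, 9.54 and 9.71, all below the sham range. The difference was -0.29 (SE 0.08, adjusted p = 0.0181), and it did not pass without TAC replicate 3 (adjusted p = 0.0617) or as the mean of its 2 probe sets (-0.23, adjusted p = 0.110).

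At their brightest probe sets the other ATG4 genes were nearly level or higher without passing. Dimmer probe sets of Atg4c (-0.34) and Atg4b (-0.05 and -0.24) were lower and that of Atg4a (0.20) was higher, none of them passing. At the brightest, Atg4a differed by 0.14, Atg4c by 0.09 and Atg4b, the most active ATG4 protease in cells, by -0.01 (95% confidence interval -0.23 to 0.21). Atg4a minus Atg4d within an array rose by 0.43 and Atg4b minus Atg4d by 0.28, each without overlap of the groups.

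Atg10, the enzyme that hands ATG12 to ATG5, fell. The sham arrays read 10.04, 10.25, 10.20, 10.17 and 10.25 and the TAC arrays 9.99, 9.95, 9.84 and 10.01. All TAC arrays lay below the sham range, narrowly so, with a difference of -0.23 (SE 0.07, adjusted p = 0.0306). Over all probe sets its single probe set did not pass (adjusted p = 0.0528), and the call was lost without any of sham replicates 3, 4 and 5 or TAC replicates 1, 2 and 3 (adjusted p up to 0.0977).

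The genes most used as conjugation markers were nearly level. Atg5 differed by -0.10 (95% confidence interval -0.32 to 0.12), Atg7, which activates both ATG12 and the ATG8 proteins, by 0.06 (-0.15 to 0.27), and Atg12 by 0.11 (-0.06 to 0.29). Atg3, which transfers ATG8 proteins to lipid, read 9.90 to 10.07 in sham and 10.09 to 10.21 in TAC. The groups of Atg3 did not overlap, but the difference of 0.13 did not pass (adjusted p = 0.172). Atg16l1 differed by -0.04 and its paralog Atg16l2 by -0.30 (adjusted p = 0.0718), with another Atg16l2 probe set at 0.07.

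In the ATG8 family, the proteins that decorate the autophagosome, 2 of 5 genes passed, in opposite directions (40%, beside 25.1% of all genes). Gabarapl1 rose, Map1lc3a fell, and Gabarap, Gabarapl2 and the brightest probe set of Map1lc3b were nearly level. Gabarapl1 read 11.60, 11.70, 11.67, 11.53 and 11.37 in sham and 11.81, 11.98, 12.02 and 11.93 in TAC, where every array was above the sham range. The difference was 0.36 (SE 0.08, adjusted p = 0.00933), or 1.28-fold, and its second probe set rose by 0.25 (adjusted p over all probe sets = 0.0386). Gabarap differed by 0.03 (95% confidence interval -0.11 to 0.18) and Gabarapl2 by 0.01 (-0.15 to 0.17).

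Within the arrays, Gabarapl1 minus Gabarap rose by 0.33 and Gabarapl1 minus Gabarapl2 by 0.35. Gabarapl1 minus Map1lc3a was -1.22 to -0.88 in sham and -0.52 to -0.36 in TAC, a rise of 0.57. In these 3 pairs the groups did not overlap, and Ulk2 minus Ulk1 rose by 0.39 with overlap. These pairs of paralogs, like those of the Wipi and Atg4 genes, were picked after the values of their members were seen. Their shifts are a description. An exact permutation test was run on them, but pairs picked in this way give it no weight.

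Map1lc3a, which encodes an LC3 protein, read 12.56, 12.71, 12.55, 12.55 and 12.59 in sham and 12.33, 12.41, 12.38 and 12.42 in TAC, without overlap. The difference was -0.21 (SE 0.06, adjusted p = 0.0292). The call was lost without TAC replicate 1, 2 or 3 (adjusted p up to 0.0883). Its second probe set fell by 0.34 (adjusted p over all probe sets = 0.0149, where the brightest had 0.0555 and did not pass), and the mean of both fell by 0.27 (adjusted p = 0.00700).

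For Map1lc3b, the LC3 form most used to count autophagosomes, the answer depended on the probe set. The brightest averaged 13.07 in both groups, with a difference of -0.0050 (95% confidence interval -0.12 to 0.11). The second read 12.47, 12.50, 12.51, 12.47 and 12.65 in sham and 12.22, 12.24, 12.29 and 12.40 in TAC, and fell by 0.23 (adjusted p over all probe sets = 0.0483). The third fell by 0.29 (0.0273), again without overlap, and the dimmest, which averaged 4.31, differed by 0.12 and did not pass (0.611). With the brightest probe set below 13 standing for each gene, Map1lc3b passed as lower (-0.23, adjusted p = 0.0305), so that both LC3 genes were then called lower and the mean of the 4 probe sets, at -0.10 (adjusted p = 0.253), was not.

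**Figure D3:**
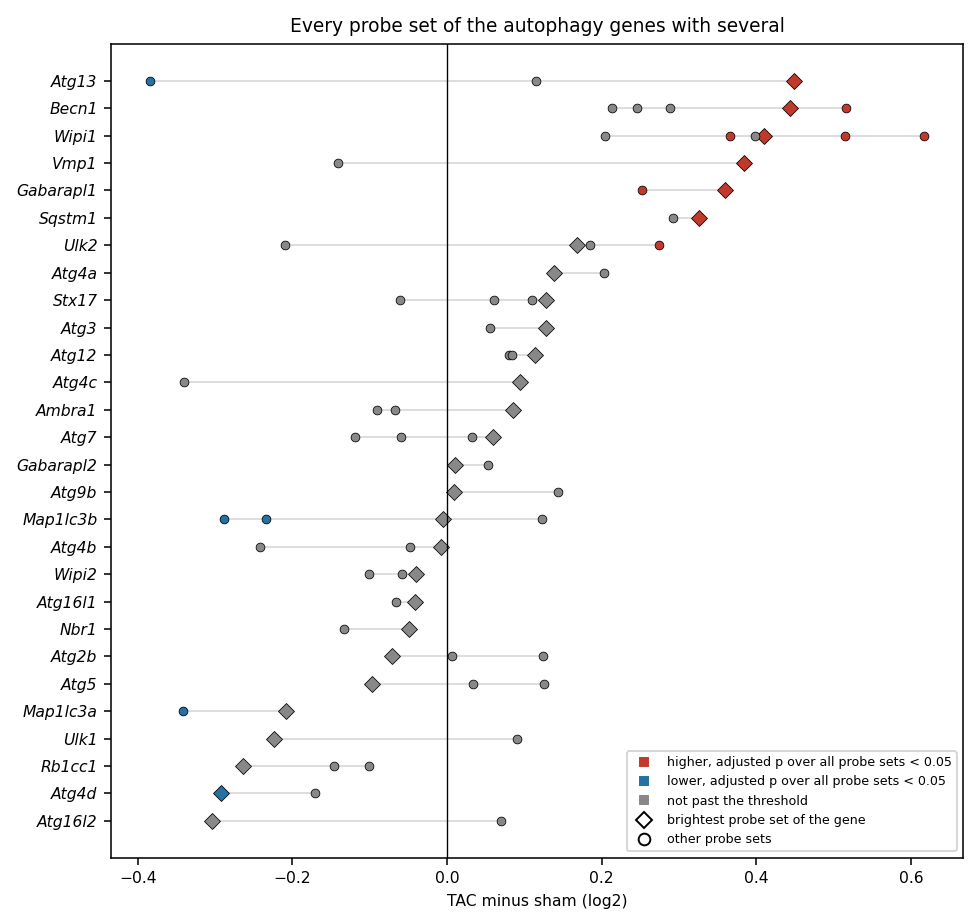
Difference between TAC and sham (log2, horizontal axis) at every probe set of the 28 autophagy genes with several, with diamonds for the brightest and colours for adjusted p below 0.05 over all probe sets. Wipi1, Becn1 and Gabarapl1 lie wholly to the right of 0, whereas Atg13, Vmp1, Ulk1 and Map1lc3b have probe sets on both sides.

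Of the cargo receptors, Sqstm1 rose and Nbr1 was nearly level. Sqstm1 encodes p62, which binds ubiquitinated cargo and is itself degraded by autophagy. It read 12.03, 11.66, 11.70, 11.92 and 11.84 in sham and 12.18, 12.11, 12.12 and 12.23 in TAC, again without overlap. The difference was 0.33 (SE 0.08, adjusted p = 0.0171), or 1.25-fold, and a dimmer probe set was 0.29 higher without passing (adjusted p over all probe sets = 0.309). Nbr1 differed by -0.05 (95% confidence interval -0.17 to 0.07).

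Neither gene of fusion with lysosomes passed in limma. Stx17, the syntaxin of the closed autophagosome, differed by 0.13 (adjusted p = 0.168) and Epg5, a tether, by -0.07 (adjusted p = 0.628).

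Over all 89 probe sets of the members, 12 passed as higher and 5 as lower, which is 19.1% against 17.7% of all probe sets. Of the 51 that were not the brightest of their gene, 10 passed. Apart from those of Wipi1, Becn1, Gabarapl1, Map1lc3a and Map1lc3b given above, they belonged to Ulk2 as higher and to Atg13 as lower. The called genes with 1 sign over several probe sets were Wipi1, Becn1, Gabarapl1, Sqstm1, Map1lc3a and Atg4d.

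Other genes of the pathway were read from lists chosen by function. Of 15 core factors outside the naming rule, 3 rose and 3 fell. Bcl2, whose protein binds beclin-1, had the largest increase, 1.46 (SE 0.17, adjusted p = 0.000171), and all 5 of its probe sets were higher. It averaged 8.48 over the sham arrays (SD 0.37) and 9.94 over the TAC arrays (SD 0.11). Tecpr2, whose protein binds ATG8 proteins, fell by 0.90 (SE 0.08, adjusted p = 2.35e-05). Tmem41b, a scramblase that works with VMP1, fell by 0.59 (adjusted p = 0.000472), although 2 of its 6 probe sets were higher without passing and the mean of the 6 did not pass (-0.20, adjusted p = 0.0708).

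The further changes in that list were small. Wdr45, a WIPI family gene, fell by 0.22, and Rab33b and Nrbf2 rose by 0.26 and 0.21. Wdr45 lost its call without any of sham replicates 3, 4 and 5 or TAC replicates 1, 2 and 3 (adjusted p up to 0.0921). Rab33b lost it without any array but TAC replicate 4 (up to 0.145) and Nrbf2 without any but sham replicate 3 (up to 0.126). The called share was 40%, beside 25.1% of all genes and 45.3% of genes brighter than the median gene, so no excess is read from it. The list's median difference was -0.02.

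Of 31 upstream regulators 2 rose and 7 fell, with a median difference of -0.14. The called share was 29.0%, beside 25.1% of all genes, with 6.45% higher beside 12.8% and 22.6% lower beside 12.3%. Among genes brighter than the median gene, 45.3% were called, and 46.7% of those calls were higher. The list was not compared with genes of like brightness, so no excess of decreases is read from it. AMPK, the energy-sensing kinase that acts on ULK1, changed in its subunit genes in both directions. Its beta subunit gene Prkab2 rose by 0.77 (SE 0.11, adjusted p = 0.000606) and Prkab1 fell by 0.61 (SE 0.09, adjusted p = 0.000921). The gamma subunit genes, named after their values were seen, did likewise, with Prkag2 higher by 0.55 (adjusted p = 0.00656) and Prkag1 lower by 0.46 (adjusted p = 0.00109). The catalytic subunit genes Prkaa1 and Prkaa2 differed by 0.22 and -0.02 and did not pass. A second Prkaa2 probe set, however, fell by 0.33 without overlap (adjusted p over all probe sets = 0.0284), and the third differed by -0.30 (0.0836).

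Of the transcription factors that drive autophagy and lysosome genes, Mitf fell by 0.55 (SE 0.08, adjusted p = 0.000663) and Foxo3 by 0.51 (SE 0.08, adjusted p = 0.000921). Tfeb differed by -0.29 (adjusted p = 0.120) and Tfe3 by 0.05 (adjusted p = 0.744). The other decreases were Flcn (-0.61), Lamtor2 (-0.36, but adjusted p = 0.0874 as the mean of its probe sets), both of the lysosomal mTORC1 platform, and Foxo1 (-0.24), whose call was lost without any array but sham replicate 2 or TAC replicate 4 (adjusted p up to 0.145). Foxo1 also lost it as the mean of its 4 probe sets (-0.10, adjusted p = 0.339). Mtor itself differed by 0.12 (adjusted p = 0.403).

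Of 22 further genes of selective autophagy 3 rose and 3 fell, a called share of 27.3%. That lies near the 25.1% of all genes and below the 45.3% of genes brighter than the median gene. Pink1, the kinase that marks damaged mitochondria, fell by 0.47 (SE 0.06, adjusted p = 0.000404) at the brighter of 2 probe sets and by 0.43 at the other. Calcoco1 fell by 0.37 (adjusted p = 0.00396) and the ubiquitin ligase gene Stub1 by 0.33. Stub1 lost its call without TAC replicate 2 or 3 (adjusted p up to 0.0626), and Calcoco1 as the mean of its probe sets (adjusted p = 0.0601). The co-chaperone gene Bag3, which sends clients to p62, rose by 0.41 (SE 0.07, adjusted p = 0.00145), its partner Hspb8 by 0.23 (adjusted p = 0.0123, lost with centring) and the glycogen receptor gene Stbd1 by 0.98 (SE 0.22, adjusted p = 0.00813). Bnip3, a mitophagy receptor gene, was 0.20 higher without passing (adjusted p = 0.0715). Retreg1, a receptor gene for endoplasmic reticulum, differed by -0.24 without overlap (adjusted p = 0.0511), and its second probe set fell by 0.53 (adjusted p over all probe sets = 0.00190).

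Of 14 genes of vesicle fusion and the lysosome membrane 1 rose and 1 fell. That is a called share of 14.3%, beside 25.1% of all genes and 45.3% of genes brighter than the median gene. Lamp1 rose by 0.19 (adjusted p = 0.0232), a call lost with each array centred and without sham replicate 4 or TAC replicate 1, 2 or 3 (up to 0.0714), and the RAB7 effector gene Rilp fell by 0.51 (SE 0.09, adjusted p = 0.00236). The median difference of the list was -0.02. Rubcnl, Bnip3l, Arl8a, Arl8b and Bloc1s1 were not analysed here.

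**Figure D4:**
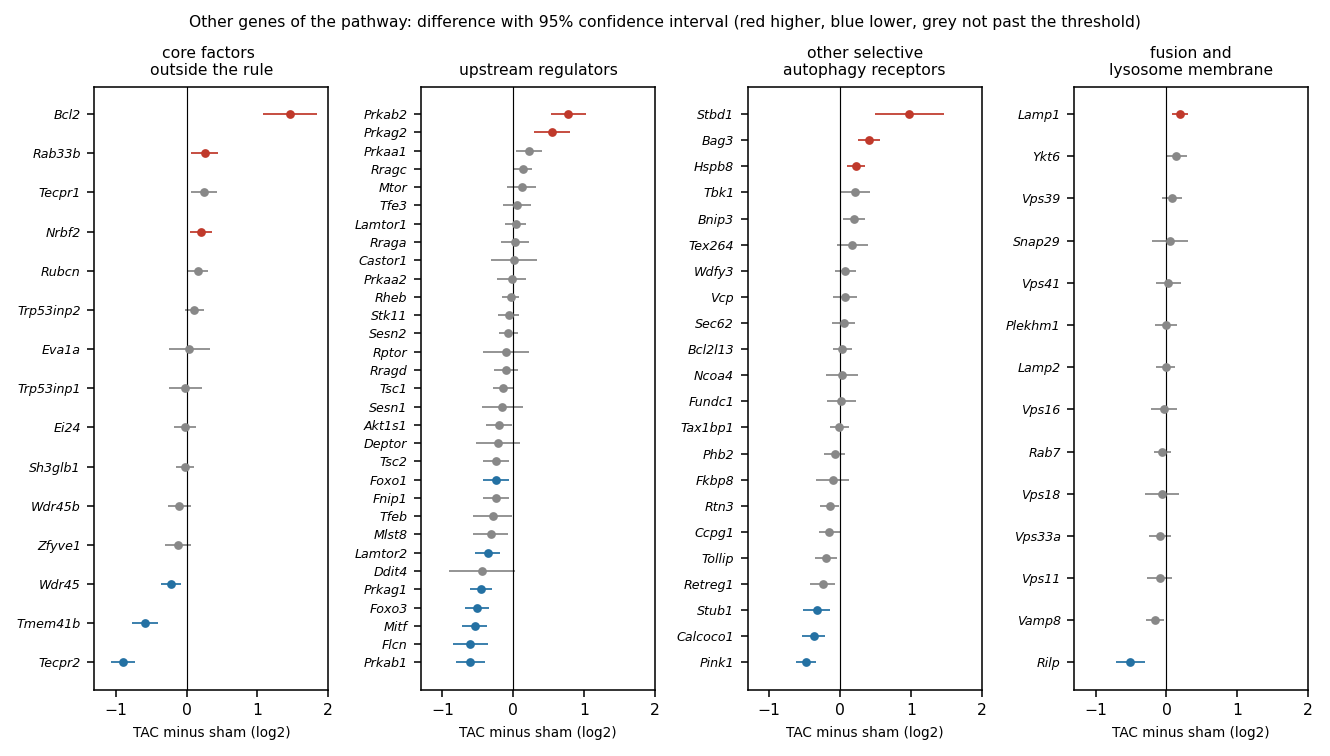
Difference between TAC and sham (log2, horizontal axis) of further pathway genes in 4 lists, with 95% confidence intervals. Bcl2, Stbd1 and Prkab2 stand highest, and Tecpr2, Prkab1 and Flcn lowest.

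The tissue is a mixture, and markers of its cells moved with surgery. In these bulk samples fewer cells of a type and less RNA per cell cannot be told apart. Of 8 fibroblast markers 6 rose, and the mean over the list was 10.61 to 11.01 in sham and 11.57 to 11.91 in TAC. Postn rose most, by 3.28, while Pdgfra (0.04, adjusted p in limma = 0.698) and Tcf21 (0.13, 0.541) did not pass. A dimmer Pdgfra probe set rose by 0.36 (adjusted p over all probe sets = 0.0489). Of 7 macrophage markers 6 rose, with list means of 8.80 to 9.37 and 9.82 to 10.02. The 9 cardiomyocyte markers, with list means of 14.18 to 14.21 in sham and 14.16 in each TAC array, held 1 decrease, Tnni3 at -0.16. Their brightest probe sets averaged 13.39 to 14.55, near the highest gene means on the arrays, so no stability is read from them. Dimmer probe sets of Myh6 (-0.50), Tnnt2 (-1.40), Ryr2 (-0.69) and Pln (-0.21) fell, with adjusted p over all probe sets of 0.00828, 0.000376, 0.0153 and 0.0374. The other dimmer probe sets of these markers did not pass, with Ttn at -0.06 to 0.06, Tnnt2 at -0.02 and Pln at -0.27. Of 6 endothelial markers 1 fell, of 6 smooth muscle and pericyte markers 2 rose and 2 fell, of 6 skeletal muscle markers 1 rose and 2 fell, and none of 4 T and B cell markers passed in limma (0 at an unadjusted p below 0.05). The part of these shifts in the differences of the autophagy genes was not tested.

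The 4 load markers Nppa, Nppb, Myh7 and Acta1 rose by 1.30 to 3.03. Sham replicate 2 was the lowest sham array in each of these 4, which enlarges their differences. In Acta1 it read 10.13, where the other sham arrays read 12.07 to 12.51. Sham replicate 2 held the lowest sham value in 17 of the 38 autophagy genes and the highest in 10. Sham replicate 5 was lowest in 11 and highest in 11. When sham replicate 2 was left out, 7 members were higher, now with Ulk2, and 6 lower, now with Atg2a and Atg16l2. As a measure of RNA quality, the excess of 3′ over 5′ signal at the actin and GAPDH controls was 0.90 to 1.16 in sham and 0.90 to 0.93 in TAC (two-sided exact permutation p = 0.254). Nothing in the labels says that every array came from a separate mouse, so p-values measure only the spread between these samples, which may be technical.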

How the data were processed

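The authors deposited log2 values, and RMA is named in the submitters' processing notes. Its version and software are not given in the sources used here. RMA corrects background, brings all arrays to a common distribution (each had a median of 6.5661, so a general rise or fall of RNA cannot be seen) and summarises probe sets. The platform annotation paired 34945 probe sets with 1 symbol and 932 with several. Control probe sets and those without 1 symbol were left out of the gene fit, and dim genes were kept. Precision is limited by how few arrays there are.

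The brightest probe set, by its mean over all arrays, stood for each of 18193 genes. limma 3.58.1 in R 4.3.3 (lmFit, eBayes, no covariate, two-sided) gave 7 residual and 3.27 prior degrees of freedom. Single probe sets were adjusted over all 45037. In data simulated for TAC minus sham over 18193 genes, changes of 0.5, 1 and 2 were recovered in 61.2%, 100% and 98.5% of the genes given them. Of 186 calls 13 were false. Far fewer genes were changed there than were called in the real data, and every member differed by less than 0.5, so recovery of differences like theirs was not measured. Tables and figures used Python 3.11.15. The members and lists were chosen with earlier results of these data known. All members are accounted for, called ones with every array, and up to 4 called genes of each further list were to be named by smallest p; others were chosen after their values were seen. Alternatives were other probe set rules, a brightness filter, a variance trend, centring, cyclic loess, array weights, a stricter threshold and leaving out each array.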

Additional observations from a re-analysis of the deposited data

Results flagged for a closer look

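Among 76 groups of arrays examined, the sham and the TAC group of each of the 38 genes, 5 held a value far from the others of its group, where chance gives about 1 in 20 groups. The measure is the gap to the nearest array divided by the range of the group. Map1lc3a in sham replicate 2 was high, at 12.71 against 12.59 for the next array (0.747), and its decrease passed without that array too. Uvrag was high in sham replicate 5, at 9.15 against 8.96 (0.839), and low in TAC replicate 3, at 8.79 against 8.95 (0.958). In TAC replicate 4 Atg3 was high, at 10.21 against 10.11 (0.836), and Atg12 was low, at 11.42 against 11.58 (0.9).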

How the results depend on the processing

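The count of 6 members higher in TAC stayed within 4 to 7 under every alternative run. The count of 4 lower was 2 with the mean of each gene's probe sets, 7 with each array centred on its median, 8 with array weights and 0 at an adjusted p below 0.01 in limma, and 0 to 6 on leaving out 1 array. The median difference moved from -0.0063 to -0.039 with the mean of probe sets, to -0.057 with centring and to -0.055 with array weights, and ran from -0.056 to 0.0046 on leaving out 1 array. At an adjusted p below 0.05, Becn1, Wipi1, Gabarapl1 and Sqstm1 kept their calls in the 9 fits without an array and 7 other fits, and Atg13 and Vmp1 in all but that with the mean of probe sets. Cyclic loess ended the calls of Ulk1, Atg10 and Map1lc3a. Among single genes 23 refits of 6 genes lost a call and 19 refits of 7 genes gained one. No called gene changed direction, and 12 genes that did not pass changed sign in 30 refits. The cause was not tested. With only genes brighter than the median gene 6 members were higher and 6 lower. Signal over background was not assessed, so dim genes are less certain. No paired analysis was possible because the labels give no replicate numbers, and those used here name arrays in order only.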
